A study of Mus musculus with 13 samples.

Results

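Tumors of microRNA-treated mice were set against normal tissue of microRNA-treated mice, on 4 of the 13 expression arrays of the series, chosen by the group their titles give. The microRNA tumors had 2 arrays and the microRNA normal tissue had 2 arrays. The control tumors had 7 arrays and the control normal tissue had 2, and these entered the same model fit. All 4 groups came from CPC-Apc mice (CDX2P-NLS Cre;Apc+/loxP), in which Cre recombinase under the Cdx2 promoter deletes the single floxed Apc allele in intestinal epithelium. The treated mice received miR-200c, miR-302 (-a, -b, -c and -d) and miR-369 (-3p and -5p), formulated with super carbonate apatite (sCA) and albumin and injected into the tail vein. The control mice carried the same alleles and received a negative control microRNA. Per the labels, injections began at 8 weeks of age and were given 3 times a week for a total of 24, with 25 µg of each microRNA. The protocol gives this schedule for both treatments without naming samples, and the control arrays are tied to the negative control by a short description only. The age at collection, the mouse behind each sample and its position along the gut are not given. Both tissues came from treated mice, so the comparison describes tumor against normal tissue under treatment and does not measure the treatment. Nothing states that the samples of a group came from separate animals, so p-values measure only the spread between these samples, which may be technical. In bulk tissue, fewer cells of a type and less RNA per cell cannot be told apart.

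Loss of Apc leaves beta-catenin undegraded, and the Wnt target genes that it switches on are the usual first mark of intestinal tumors. Intestinal tumors also tend to lose the genes of mature absorptive cells, to remodel their matrix and to attract inflammatory cells. The injected microRNAs were the set known for reprogramming cells toward pluripotency. A microRNA recognises its targets mainly through its seed, bases 2 to 8, which stands in capitals below. The mature sequences, from RefSeq (mouse build GRCm38.p6), are shown so that their seeds can be compared. The lists of reported targets described later cover miR-200c and miR-302 and are fixed by gene name. No seed was matched to any gene here. The labels name the arm of miR-369 only, so the 3p arms of the others are shown by convention, and miR-302a is named only.
miR-200c-3p: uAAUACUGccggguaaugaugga
miR-302b-3p: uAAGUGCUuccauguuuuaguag
miR-302c-3p: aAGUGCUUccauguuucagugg
miR-302d-3p: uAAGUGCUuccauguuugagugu
miR-369-3p: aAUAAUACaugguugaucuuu
miR-369-5p: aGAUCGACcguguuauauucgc
The seeds of miR-302b and miR-302d are identical, and that of miR-302c is annotated 1 base further along the same stretch.

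Each array measured messenger RNA by the brightness of 60-base probes in 1 colour. Levels below are log2 signal minus the log2 of that array's 75th percentile signal, so a level of 0 is that percentile, and a difference of 1 is a doubling. Differences are microRNA tumors minus microRNA normal tissue, with their standard error (SE) and the adjusted p of limma over all 25332 genes tested, and a gene was called under 0.05. For a gene dimmer than that limit (not well above background) on both arrays of a group, the difference is only bounded, and a fold is written as "at least". The 75th percentile signal was 454.6 and 516.1 on the microRNA tumor arrays and 226.6 and 296.3 on the microRNA normal arrays. Over the 13 arrays, 50.7% to 56.96% of probes were well above background, and the number of arrays limits the precision. Tumor 1 and normal 1 lay on slide 2, and tumor 2 and normal 2 on slide 1, so each slide held a pair of its own.

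Both tissues carried the epithelial keratin Krt8, at 8.37 and 8.01 in the microRNA tumors and 9.24 and 8.96 in the microRNA normal tissue. The microRNA normal samples also held genes of the small intestine. Apoa1, an apolipoprotein of small intestine and liver, was at 4.20 and 2.38 in microRNA normal tissue, against -5.41 and -5.33 in control normal tissue. Fabp6, the ileal bile acid binding protein, was at 9.54 and 8.50 in microRNA normal tissue, against 1.27 and 2.98 in control normal tissue. Slc10a2, the ileal bile acid transporter, was at 4.82 and 4.62 in microRNA normal tissue, against 1.18 and 2.86 in control normal tissue. Each of these genes was higher on both microRNA normal arrays than on either control normal array. The colon genes were present too, Car1 (carbonic anhydrase 1) at 8.58 and 8.94 in microRNA normal tissue, against 7.29 and 9.13 in control normal tissue. Hoxb13, a homeobox gene of the distal hindgut, was at 5.65 and -0.50 in microRNA normal tissue, against 6.35 and 5.90 in control normal tissue, so normal 2 stood apart. Krt5, a squamous keratin, was at -4.19 and -4.25 in microRNA normal tissue, against 1.51 and 0.50 in control normal tissue. In the microRNA tumors, Apoa1 was at -6.67 and -6.70, Fabp6 at -0.72 and -0.32, Car1 at 4.41 and 3.55, and Hoxb13 at 6.17 and 6.29. The part that these region genes play in the differences below was not tested.

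**Figure D1:**
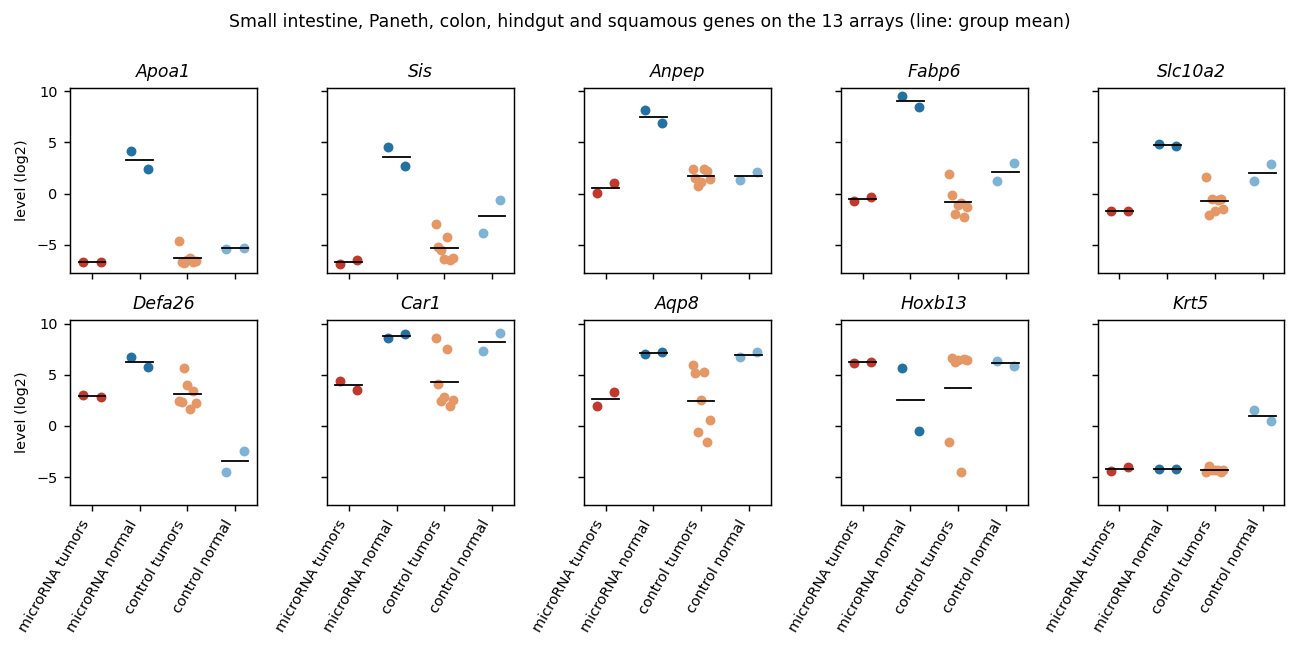
Levels (log2 signal relative to the array's 75th percentile, vertical axis) of 10 genes of small intestine, colon, distal hindgut and squamous epithelium on all 13 arrays by group, with a line at each group's mean. Apoa1, Fabp6 and Slc10a2 are higher on both microRNA normal arrays than on both control normal arrays, and Hoxb13 is low in microRNA normal tissue on replicate 2 only.

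Matrix proteases, cytokines and Wnt regulators were among the genes higher in the microRNA tumors, and absorptive, defensin and adipocyte genes among those lower. Of 25332 genes, 790 were called (3.12% of all tested), 352 higher (1.39%) and 438 lower (1.73%) in the microRNA tumors. At an unadjusted p under 0.05 there were 5694. Of the 790, 787 differed at least 2-fold, and in all 790 both tumor arrays lay on one side of both normal arrays. Over all genes, both tumor arrays lay above both normal arrays in 20.4% and below in 33.1%. These shares, and those of all genes called, are the background for the list counts below. The median difference of all genes was -0.14, with -0.16 between the pair on slide 2 and -0.14 between the pair on slide 1. The share of called genes that were higher was 44.56%, and it depended on the processing. It was 18.48% with normexp background correction, where the median of all genes was -0.30, and 62.87% after quantile normalization, with a median of 0.04. Scaling to each array's median gave 63.47% and 0.07, and leaving the arrays unscaled gave 94.73% and 0.76, so directions are read relative to that median. Since both tumor arrays lay on one side of both normal arrays, all 790 genes necessarily had the same sign within each slide's pair. All 790 were also among the 1632 (6.44%) called with slide as a block, 702 higher (2.77%) and 930 lower (3.67%). Within slide 1 alone 37 genes were called, and within slide 2 alone 110. The count rested on single arrays: 78 genes were called without tumor 1, 313 without tumor 2, 181 without normal 1 and 228 without normal 2. Without tumor 1 the rises called were 33 and the falls 45.

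**Figure D2:**
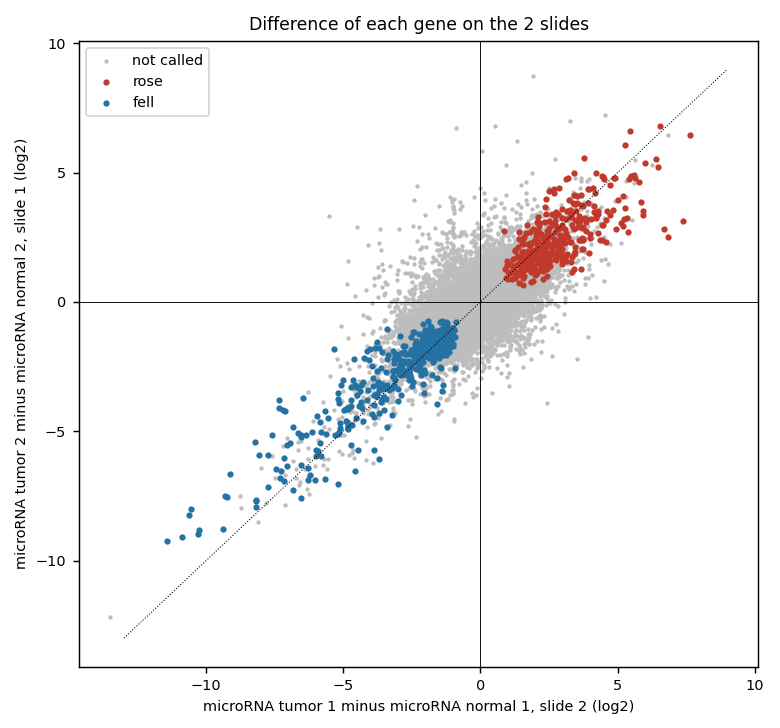
Each point is a gene, with its difference (microRNA tumor minus microRNA normal tissue, log2) in pair 1 on slide 2 on the horizontal axis and in pair 2 on slide 1 on the vertical axis. Called genes have the same sign in both pairs, which follows from both tumor arrays lying on one side of both normal arrays. The 352 higher and 438 lower genes fill opposite corners.

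Proteases and signals of tissue remodelling led the genes higher in the microRNA tumors. Inhba, a subunit of activin, was at 2.33 and 1.85 in microRNA tumors and at -3.13 and -4.76 in microRNA normal tissue. The groups lay far apart, and Inhba rose by 6.04 (SE 0.63, adjusted p = 0.000959). Il11, a cytokine of the interleukin 6 family, was at 2.18 and 1.24 in microRNA tumors and at -2.73 and -3.55 in microRNA normal tissue. It rose by 4.85 (SE 0.56, adjusted p = 0.00164), again without overlap. Spp1, the secreted phosphoprotein osteopontin, was at 3.13 and 0.39 in microRNA tumors and not well above background in microRNA normal tissue, at -4.51 and -6.06. Tumor 1 was the higher by far, and the difference was at least 51.7-fold (adjusted p = 0.0144). Its call was lost without tumor 1, without normal 1 or without normal 2.

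Some of the 15 largest rises were less steady between arrays. H19, an imprinted long noncoding RNA, was at 3.56 and 1.63 in microRNA tumors and at -2.82 and -3.88 in microRNA normal tissue. The difference was 5.94 (SE 1.21, adjusted p = 0.0251), its 6 probes ranged from 2.59 to 6.83, and the call was lost without any 1 of the 4 arrays. Cxcl5, a neutrophil-attracting chemokine, lost its call in the same way and was at 4.03 and 2.60 in microRNA tumors and -1.25 and -3.46 in microRNA normal tissue (difference 5.66, adjusted p = 0.0257). Il1rl1, the receptor of interleukin 33, was at 4.26 and 3.32 in microRNA tumors and -0.62 and -1.45 in microRNA normal tissue (difference 4.83, adjusted p = 0.00898). Of these 15 rises, 3 (Inhba, Mmp13 and Il11) were called without each of the 13 arrays in turn. The count called was 3 without tumor 1, 13 without tumor 2, 8 without normal 1 and 9 without normal 2. The other rises included Ppbp (at least 9.41-fold, adjusted p = 0.00514), which encodes a platelet chemokine, and Lgr6 (at least 8.31-fold, adjusted p = 0.00473), an R-spondin receptor whose 2 probes gave 1.13 and 5.21.

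**Figure D3:**
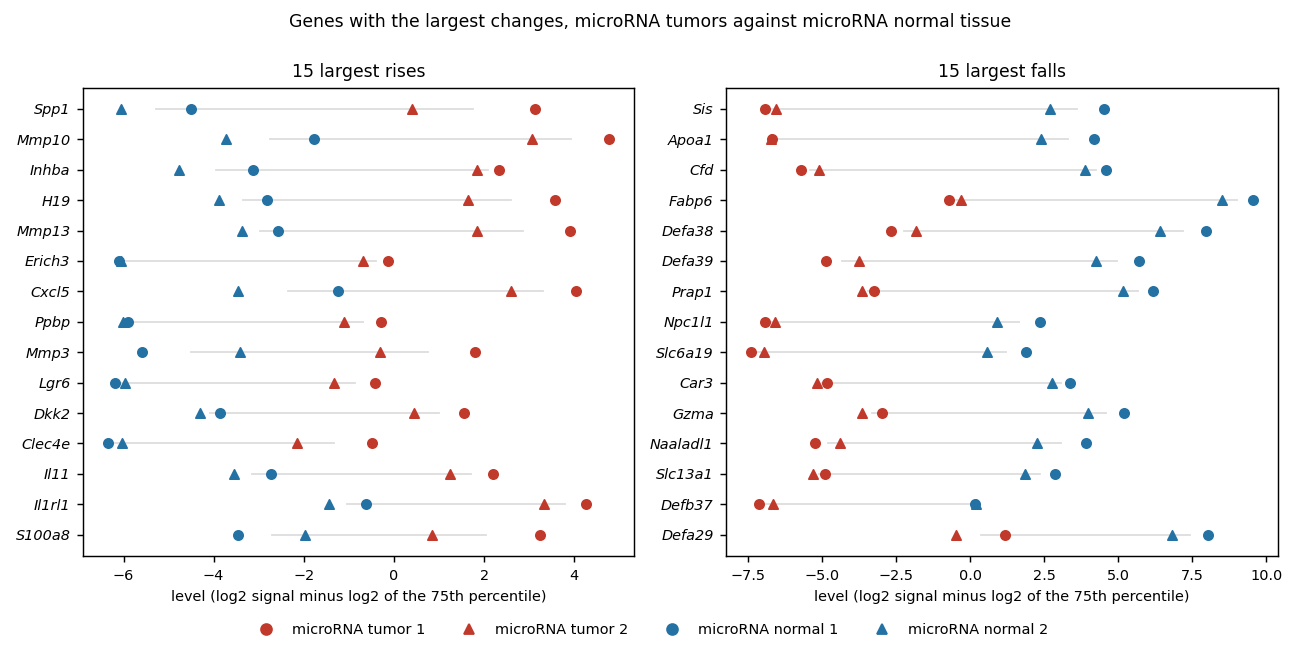
Levels (log2 signal relative to the array's 75th percentile, horizontal axis) of the 15 largest rises and the 15 largest falls on the 4 microRNA arrays, tumors in red and normal tissue in blue, with circles for replicate 1, triangles for replicate 2 and a grey line joining the group means. The genes drawn were chosen among those with both tumor arrays on one side of both normal arrays. Tumor 1 lies above tumor 2 in each rise, as in Spp1 (3.13 and 0.39).

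Of 13 matrix protease and plasminogen genes tested, 10 rose (76.9% of them against 1.39% of all genes) and none fell. All 13 had both tumor arrays above both normal arrays, against 20.4% of all genes. The list's median difference was 2.97 (2.30 with bounded genes at their bound), against -0.14 over all genes, and it was 2.88 in the pair on slide 2 and 3.11 in the pair on slide 1. The stromelysin Mmp10 was at 4.78 and 3.05 in microRNA tumors and at -1.76 and -3.74 in microRNA normal tissue. It rose by 6.67 (SE 0.89, adjusted p = 0.00348), and the call was lost without tumor 1 (adjusted p = 0.0564). The collagenase Mmp13 was at 3.90 and 1.84 in microRNA tumors and at -2.58 and -3.37 in microRNA normal tissue, and rose by 5.84 (SE 0.73, adjusted p = 0.00249). Mmp3, the other stromelysin, was at 1.80 and -0.31 in microRNA tumors and at -5.60 and -3.42 in microRNA normal tissue. It rose by 5.26 (SE 0.92, adjusted p = 0.0127), with 7.40 in the first pair and 3.11 in the second, and was not called without tumor 1 or without normal 1. The gelatinase Mmp9 was at least 4.93-fold higher (adjusted p = 0.00686).

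Regulators of these enzymes were also among the rises. Timp1, an inhibitor of metalloproteinases, was at 3.21 and 1.83 in microRNA tumors and -1.07 and -1.69 in microRNA normal tissue, a difference of 3.90 (adjusted p = 0.00312). It was called without each of the 13 arrays in turn. Plau, the urokinase, differed by 2.05 (adjusted p = 0.0332) and its receptor Plaur by 1.97, both higher in microRNA tumors. The members not called were Mmp11 at 1.50 (adjusted p = 0.0785), Mmp12 at 2.75 (adjusted p = 0.0886) and Plat at 2.97 (adjusted p = 0.132). Without tumor 1, 3 members were called, against 7 without tumor 2, 5 without normal 1 and 6 without normal 2. In the control mice all 13 rose in tumors against normal tissue, where 8.2% of all genes did.

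The probes of Mmp10, Mmp3 and Mmp13 lie in the metalloproteinase cluster of chromosome 9 in the files' build mm9, at chr9:7510011-7510070, chr9:7455751-7455810 and chr9:7282762-7282821. Their upstream windows are shown because the 3 neighbours were among the largest rises and each window held the AP-1 motif TGANTCA, in capitals below. The windows are the 250 bases before the annotated start on the plus strand, from RefSeq build GRCm38.p6, at chr9:7502092-7502341 for Mmp10, chr9:7445572-7445821 for Mmp3 and chr9:7272264-7272513 for Mmp13.
Mmp10: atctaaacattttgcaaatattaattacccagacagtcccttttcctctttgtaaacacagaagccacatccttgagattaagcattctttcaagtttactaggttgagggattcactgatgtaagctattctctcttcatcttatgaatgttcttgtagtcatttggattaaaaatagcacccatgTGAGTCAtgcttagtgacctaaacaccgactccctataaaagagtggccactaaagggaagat
Mmp3: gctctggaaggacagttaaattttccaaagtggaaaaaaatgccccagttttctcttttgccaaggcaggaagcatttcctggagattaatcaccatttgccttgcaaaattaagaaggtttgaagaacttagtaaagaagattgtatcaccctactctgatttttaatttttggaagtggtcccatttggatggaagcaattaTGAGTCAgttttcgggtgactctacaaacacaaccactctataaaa
Mmp13: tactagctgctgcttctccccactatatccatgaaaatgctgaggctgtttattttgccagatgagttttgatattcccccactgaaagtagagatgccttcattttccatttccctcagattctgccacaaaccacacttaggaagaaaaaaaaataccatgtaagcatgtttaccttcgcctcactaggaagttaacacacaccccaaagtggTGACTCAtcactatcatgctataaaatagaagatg
The match began 63, 46 and 35 bases before the start of Mmp10, Mmp3 and Mmp13. Both strands were searched, and the 3 windows were chosen for print after the matches were seen. Of the 8 list members with a window, 4 held the motif (50%: Mmp3, Mmp10, Mmp13 and Plaur), against 1856 of 27025 windows of all genes (6.87%). A match describes these letters only and is not a measured binding site. The same search found the TCF motif CTTTGAT in 1 of 14 windows of the Wnt list (7.14%; 3.23% of all windows) and the HNF1 core GTTAAT in 2 of 15 windows of the small intestine list (13.3%; 6.52% of all windows).

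Inflammatory cytokines and chemokines were mostly higher in the microRNA tumors. Of 18 tested, 12 rose (66.7%, against 1.39% of all genes) and 1 fell. Their median difference was 2.66 (2.10 with bounds), 3.21 in the pair on slide 2 and 2.05 in the pair on slide 1. Cxcl1, a neutrophil chemokine, was at 1.07 and 0.11 in microRNA tumors and -4.20 and -3.51 in microRNA normal tissue, a rise of 4.45 (adjusted p = 0.00178). Ccl2, which attracts monocytes, was at 2.57 and 1.45 in microRNA tumors and -2.14 and -1.93 in microRNA normal tissue, a rise of 4.04 (adjusted p = 0.00178). Il1b, the inflammasome cytokine, was at 2.05 and 1.65 in microRNA tumors and -1.96 and -0.96 in microRNA normal tissue, a rise of 3.31 (adjusted p = 0.0026). These 3 kept their call without each of the 13 arrays in turn. Ptgs2, the inducible cyclooxygenase, rose by 3.60 (adjusted p = 0.0153) and Tnf by 2.35 (adjusted p = 0.0231), and Il6 was at least 6.34-fold higher (adjusted p = 0.0259). Lif, of the interleukin 6 family, went the other way: it was not well above background in microRNA tumors and was at least 2.53-fold lower (adjusted p = 0.0318), a call lost without tumor 1, tumor 2, normal 1 or either control normal array. Cxcl2 (2.38, adjusted p = 0.0722) and Ccl4 (0.16) were not called. The members called higher numbered 4 without tumor 1, 9 without tumor 2, 4 without normal 1 and 4 without normal 2.

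Markers of the cells that make or answer these signals were fewer among the calls. Of 10 neutrophil markers, the calprotectin genes S100a8 and S100a9 rose (20%, against 1.39% of all genes). The list's median difference of 0.92 became -0.13 with normexp background correction. S100a9 was at 5.14 and 3.13 in microRNA tumors and at -0.79 and -0.23 in microRNA normal tissue, a rise of 4.64 (adjusted p = 0.0132). Neither was called without tumor 1, without normal 1 or without normal 2. Of 13 macrophage and monocyte markers, Cd14, part of the endotoxin receptor, rose by 1.79 (adjusted p = 0.0194). Both tumor arrays lay above both normal arrays in 12 of the 13, against 20.4% of all genes. Cd14 lost its call without tumor 1 or without normal 2, and 3 of the 13 were called without control tumor 3. T and NK cell markers were mostly lower. Of 16 T and NK cell markers none rose and 4 fell (25%, against 1.73% of all genes), with a median of -1.51 (-1.43 with bounds). Gzma, a granzyme of cytotoxic lymphocytes, was at -2.98 and -3.66 in microRNA tumors and 5.20 and 4.00 in microRNA normal tissue, and it fell by 7.92 (SE 1.31, adjusted p = 0.0101). Cd8a was at least 8.88-fold lower (adjusted p = 0.0261) and Cd8b1 at least 2.53-fold lower (adjusted p = 0.0145), both chains of the CD8 co-receptor. Gzmb fell by 2.94 (adjusted p = 0.0382). In control normal tissue Gzma was at -0.46 and 0.72. Gzmb was at -2.90 and -2.28 there, near its microRNA tumor levels of -2.91 and -2.66. The list's mean level was -1.87 and -2.05 in microRNA tumors and 0.25 and -0.05 in microRNA normal tissue. It was -0.80 and -0.64 in control normal tissue and -2.15 to -0.95 in control tumors. The general T cell genes Cd3e (-1.23) and Cd4 (-0.83) were not called. The calls rested on each array: none of the list was called without tumor 1, tumor 2 or normal 1, and 1 was without normal 2. Of 7 MHC class II genes, H2-DMa (-2.07, adjusted p = 0.017) and H2-DMb1 (-1.94, adjusted p = 0.0382), which load peptides, fell (28.6%, against 1.73% of all genes). All 7 had both tumor arrays below both normal arrays, against 33.1% of all genes. Without tumor 1, tumor 2 or normal 1 none of the 7 was called, and 1 was without normal 2 or without either control normal array. No member was called among 11 B cell markers (median -0.14, as over all genes, and above 0 with quantile, median or no scaling) or 8 plasma cell markers (median 0.28).

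Wnt regulators were mostly higher in the microRNA tumors, though few passed the test. Of 22 Wnt target and feedback genes, 4 rose (18.2%, against 1.39% of all genes) and none fell. Both tumor arrays lay above both normal arrays in 19 of the 22, against 20.4% of all genes. The median difference was 1.88, with 1.94 in the pair on slide 2 and 2.03 in the pair on slide 1. Dkk2, a secreted Wnt modulator, was at 1.55 and 0.44 in microRNA tumors and not well above background at -3.86 and -4.30 in microRNA normal tissue, a difference of at least 28.5-fold (adjusted p = 0.00499). Prox1, a homeobox factor, was at 0.23 and 0.43 in microRNA tumors and -4.21 and -4.44 in microRNA normal tissue, at least 19.2-fold apart (adjusted p = 0.0196). The inhibitors Wif1 (3.81, adjusted p = 0.0382) and Nkd1 (3.00, adjusted p = 0.0491) rose as well, Nkd1 with 1.72 and 3.00 at its 2 probes. Wnt10a, a ligand, was at 2.07 and 1.38 in microRNA tumors and at -4.77 and -5.08 in microRNA normal tissue without being called (adjusted p = 0.0523, and 0.0444 with slide as a block). Other known targets were also not called, with Rnf43 at 1.88 (adjusted p = 0.101), Myc at 1.30 (adjusted p = 0.105), Notum at 1.88 (adjusted p = 0.151) and Axin2 at 1.78 (adjusted p = 0.204). With slide as a block 7 of the 22 rose (2.77% of all genes did), and in control mice 16 rose in tumors against normal tissue. No member was called without tumor 1, and 1 was without tumor 2, normal 1 or normal 2. With either control normal array or control tumor 4 or 7 left out, 2 were called.

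Crypt stem cell markers went both ways. Of 12 tested, Smoc2 rose and Olfm4 fell. Smoc2, a matricellular protein of the crypt base, was at 5.27 and 4.78 in microRNA tumors and 2.98 and 2.55 in microRNA normal tissue, a rise of 2.27 (adjusted p = 0.0163). Olfm4, a secreted glycoprotein of crypt base cells in human and of mouse small intestine, was not well above background at -6.41 and -6.81 in microRNA tumors, against -0.61 and -0.83 in microRNA normal tissue. It was at least 17.4-fold lower (adjusted p = 0.00745). In control normal tissue Olfm4 was at -5.61 and -6.45, near the microRNA tumors, and in control tumors it ranged from -6.85 to -3.49. Its level was thus highest on the microRNA normal arrays. Smoc2 lost its call with 3 of the 4 microRNA arrays left out in turn and Olfm4 with 2 of them. Lgr5, the R-spondin receptor of the stem cells, differed by 2.42 (adjusted p = 0.0593) and Ascl2, their transcription factor, by 1.78 (adjusted p = 0.137), and neither was called. Among 8 EGF receptor ligands, Nrg1 (1.98, adjusted p = 0.0203) and Ereg (2.25, adjusted p = 0.033) rose (25%, against 1.39% of all genes). Of these, 1 was also called without tumor 1 and neither without tumor 2, normal 1 or normal 2. None of 23 proliferation genes was called, although 21 had both tumor arrays above both normal arrays (20.4% of all genes did). Their median difference was 0.65, with Mki67 at 0.69 and Top2a at 1.43.

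Stromal genes rose in part. Of 14 fibroblast and collagen genes, 4 rose (28.6%, against 1.39% of all genes). Among them was Col1a1, at 4.57 and 5.46 in microRNA tumors and 2.39 and 2.42 in microRNA normal tissue (difference 2.61, adjusted p = 0.023). The others were Col5a1 (1.93), Col1a2 (1.80) and the growth factor receptor gene Pdgfra (1.44), and no member kept its call when any 1 of the 4 microRNA arrays was left out. Of 12 genes of mesenchymal transition, 3 rose (25%, against 1.39% of all genes), with a list median of 1.49. Fn1, fibronectin, was at 6.81 and 6.60 in microRNA tumors and at 3.83 and 4.54 in microRNA normal tissue, a rise of 2.52 (adjusted p = 0.0028) that was called without each of the 13 arrays in turn. Sparc, a collagen-binding protein, rose by 1.63 (adjusted p = 0.0129) and Snai1, a repressor of epithelial genes, by 1.62 (adjusted p = 0.0356), and the list held 1 call without tumor 2, normal 1 or normal 2. The epithelial adhesion genes Cdh1 (-0.05) and Epcam (-0.22) were not called, nor was Vim (1.44). Of 16 junction and keratin genes, the claudin Cldn4 rose by 2.72 (adjusted p = 0.0309) and lost its call without any 1 of the 4 microRNA arrays.

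Genes of small intestinal absorption were lower in the microRNA tumors. Of 16 tested, 9 fell (56.2% of them against 1.73% of all genes) and none rose. All 16 had both tumor arrays below both normal arrays, against 33.1% of all genes. The list's median difference was -4.45 (-4.25 with bounds). The median was -4.83 in the pair on slide 2 and -4.06 in the pair on slide 1. The mean level over the list was -2.39 and -2.24 in the microRNA tumors, 3.03 and 2.14 in the microRNA normal tissue, -3.71 to -1.08 (median -2.67) in the control tumors and -0.71 and -0.09 in the control normal tissue. The microRNA normal arrays stood above both control normal arrays. Sis, which encodes sucrase-isomaltase, was at -6.93 and -6.54 in microRNA tumors, not well above background, and at 4.52 and 2.71 in microRNA normal tissue. It was at least 352-fold lower (adjusted p = 0.00178). Apoa1, whose levels stand above, was at least 281-fold lower (adjusted p = 8.84e-05), and Fabp6 fell by 9.54 (SE 1.10, adjusted p = 0.00164). Apoa1, Apoa4 and Npc1l1 were well above background on the microRNA normal arrays alone, so they passed the filter on dim probes through the group where they are high. Anpep, an aminopeptidase of the brush border, was at 0.04 and 1.01 in microRNA tumors and 8.13 and 6.92 in microRNA normal tissue (difference -7.00, adjusted p = 0.000272). Mttp, which loads lipid onto apolipoprotein B, was at -3.48 and -3.51 in microRNA tumors and 2.34 and 1.52 in microRNA normal tissue (difference -5.42, adjusted p = 0.000183). The fatty acid binding protein Fabp1 was at least 12.6-fold lower (adjusted p = 0.0253). The members not called included Fabp2 at -5.98 (adjusted p = 0.155), Apob at -4.41 and the peptide transporter Slc15a1 at -1.09. Between 6 and 7 members were called whichever of the 4 microRNA arrays was left out. These counts include Apoa1 and Apoa4, since the filter was not repeated when an array was left out.

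Of the 15 largest falls, 3 outside the list were carriers or uptake proteins of the gut. Npc1l1, which takes up cholesterol, was not well above background at -6.94 and -6.58 in microRNA tumors, against 2.37 and 0.91 in microRNA normal tissue, and was at least 89.4-fold lower (adjusted p = 0.000183). Slc6a19, a carrier of neutral amino acids, was at -7.38 and -6.97 in microRNA tumors and 1.87 and 0.57 in microRNA normal tissue, and was at least 66.9-fold lower (adjusted p = 0.0028). Slc13a1, a sulfate carrier, was at least 141-fold lower (adjusted p = 0.00304). The 3 were called without each of the 13 arrays in turn, with the filter on dim probes not repeated. Npc1l1 passed that filter through the 2 microRNA normal arrays alone, so without either array it would not pass. Prap1, an epithelial protein rich in proline, was at -3.23 and -3.65 in microRNA tumors and at 6.18 and 5.15 in microRNA normal tissue (difference -9.10, adjusted p = 0.0386), and 9 of the 13 arrays each ended its call when left out. Of the 15 largest falls, 8 (Apoa1 and Npc1l1 included) were called without each of the 13 arrays in turn, against 3 of the 15 largest rises.

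Alpha-defensins are antimicrobial peptides of Paneth cells in the small intestine, and some of them were called lower in the microRNA tumors. Their genes are near-identical copies, so a probe may read several of them. Defa39 was at -4.85 and -3.77 in microRNA tumors and at 5.70 and 4.25 in microRNA normal tissue, and fell by 9.28 (adjusted p = 0.00312). In control normal tissue it was at -3.86 and -4.29, near the microRNA tumors. Defa38 was at -2.67 and -1.81 in microRNA tumors and at 7.96 and 6.42 in microRNA normal tissue, and fell by 9.43 (adjusted p = 0.0196), with the call lost without any 1 of the 4 arrays. Defa29 was at 1.18 and -0.47 in microRNA tumors, against 8.03 and 6.81 in microRNA normal tissue (difference -7.06, adjusted p = 0.0199), and its call was lost in the same way. The other Paneth cell genes were mixed. Of 7 on the list, 2 rose (28.6%, against 1.39% of all genes) and none fell. Pla2g2a, a phospholipase, was at 3.40 and 3.42 in microRNA tumors and 1.06 and 0.32 in microRNA normal tissue (difference 2.72, adjusted p = 0.0105). Mmp7, matrilysin, differed by 2.89 (adjusted p = 0.0368). The lysozyme Lyz1 (-0.05) was not called. Neither was Defa26, which was at 2.99 and 2.83 in microRNA tumors and at 6.72 and 5.79 in microRNA normal tissue (difference -3.35, adjusted p = 0.113), against -4.48 and -2.43 in control normal tissue. Both microRNA groups lay above the control normal arrays for Defa26, and so did the 7 control tumors, at 1.63 to 5.62. The list's median was -1.36, with -1.24 in the pair on slide 2 and 0.30 in the pair on slide 1. Neither rise was called without tumor 1, tumor 2 or normal 2.

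Colon genes were low in the microRNA tumors too, but none was called. Of 18 colonocyte genes, 17 had both tumor arrays below both normal arrays (33.1% of all genes did), with a median of -2.49. Their mean level was 2.01 and 2.39 in the microRNA tumors and 5.46 and 5.40 in the microRNA normal tissue. Slc51a, a subunit of the basolateral bile acid exporter, was at -6.08 and -5.30 in microRNA tumors and 7.43 and 6.88 in microRNA normal tissue. This difference of -12.85 had an adjusted p of 0.0501 (0.0457 with slide as a block), and its SD among the 7 control tumors was 4.34. Control normal tissue held Slc51a at 3.00 and 5.07, below both microRNA normal arrays. Car1 (-4.78) and the water channel Aqp8 (-4.43) were not called. Without control tumor 3 there were 2 calls in the list, and without control tumor 1 or 5 there was 1. Cdx2, the homeobox factor of intestinal identity, was at 1.81 and 1.80 in microRNA tumors and at 5.65 and 5.32 in microRNA normal tissue (difference -3.69, adjusted p = 0.209). Of 14 enteroendocrine genes, Nts, the neurotensin precursor of ileal endocrine cells, was at -1.51 and -3.14 in microRNA tumors and 3.07 and 3.41 in microRNA normal tissue (difference -5.57, adjusted p = 0.0134), a call lost without any 1 of the 4 arrays. None of 14 goblet cell genes was called.

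Adipocyte markers were lower in the microRNA tumors. Of 9 tested, 4 fell (44.4%, against 1.73% of all genes) and none rose. Their median was -5.10 (-3.46 with bounds), -5.20 in the pair on slide 2 and -3.73 in the pair on slide 1. Cfd, the complement factor adipsin, was not well above background at -5.72 and -5.08 in microRNA tumors and was at 4.59 and 3.88 in microRNA normal tissue. It was at least 540-fold lower (adjusted p = 0.0144), and the call was lost without any 1 of the 4 arrays. Adipoq, the hormone adiponectin, was at -5.73 and -6.67 in microRNA tumors and 1.43 and 0.27 in microRNA normal tissue, at least 51.8-fold lower (adjusted p = 0.00168). Plin1, which coats lipid droplets, was at least 11.0-fold lower (adjusted p = 0.00371). Adipoq and Plin1 were called without each of the 13 arrays in turn. The mean level over the list was -2.63 and -2.48 in the microRNA tumors and 2.22 and 1.81 in the microRNA normal tissue, with 1.32 and 2.17 in the control normal tissue. Between 2 and 3 members were called whichever of the 4 microRNA arrays was left out. None of 14 smooth muscle markers was called (median -1.22).

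Among metabolic genes, 3 of 14 of fatty acid oxidation and ketogenesis fell (21.4%, against 1.73% of all genes) and none rose, with a median of -1.72. Among them were Cpt2 (-1.49, adjusted p = 0.0356), the inner carnitine transferase, and Pdk4 (-4.21, adjusted p = 0.0487), which restrains pyruvate oxidation. The 3 calls were lost with quantile, median or no scaling and without any 1 of the 4 microRNA arrays. They were also lost without control tumor 4, while 6 of the 14 fell without control tumor 1. Of 21 interferon-stimulated genes, the regulator Irf7 fell by 3.09 (adjusted p = 0.0467), and 10 of the 13 arrays each ended that call when left out. No gene was called among 16 of oxidative phosphorylation (median -0.89, above 0 only with no scaling) and 16 of ribosome biogenesis (median 0.81).

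The 4 microRNA arrays also allowed a look at reported targets of the injected microRNAs, with both tissues treated. Of 21 reported miR-200c targets, 1 rose (Fn1, above) and none fell, with a median of -0.19, near the -0.14 of all genes and above 0 with median or no scaling. The repressors of epithelial genes Zeb1 and Zeb2 differed by 0.70 (adjusted p = 0.193) and 0.27 (adjusted p = 0.696) and were not called. Of 21 reported miR-302 targets, 1 fell and none rose, with a median of 0.07. Cdkn1a, the cell cycle inhibitor p21, was at 2.08 and 2.04 in microRNA tumors and 3.55 and 3.53 in microRNA normal tissue (difference -1.48, adjusted p = 0.0414). The replicates were close, but its 3 probes ranged from -1.77 to -0.08, and the call was lost with quantile, median or no scaling and with any of 7 arrays left out. Tgfbr2 (0.88) and Lats2 (-0.22) were not called. Apc itself was at -1.47 and -1.02 in microRNA tumors and -1.49 and -1.07 in microRNA normal tissue (difference 0.04, adjusted p = 0.946), and its probe cannot show the loss of the floxed allele. No member was called among 6 pluripotency genes (median -0.77, above 0 only with no scaling). The lists' calls in each direction are drawn in the plot of members by list.

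**Figure D4:**
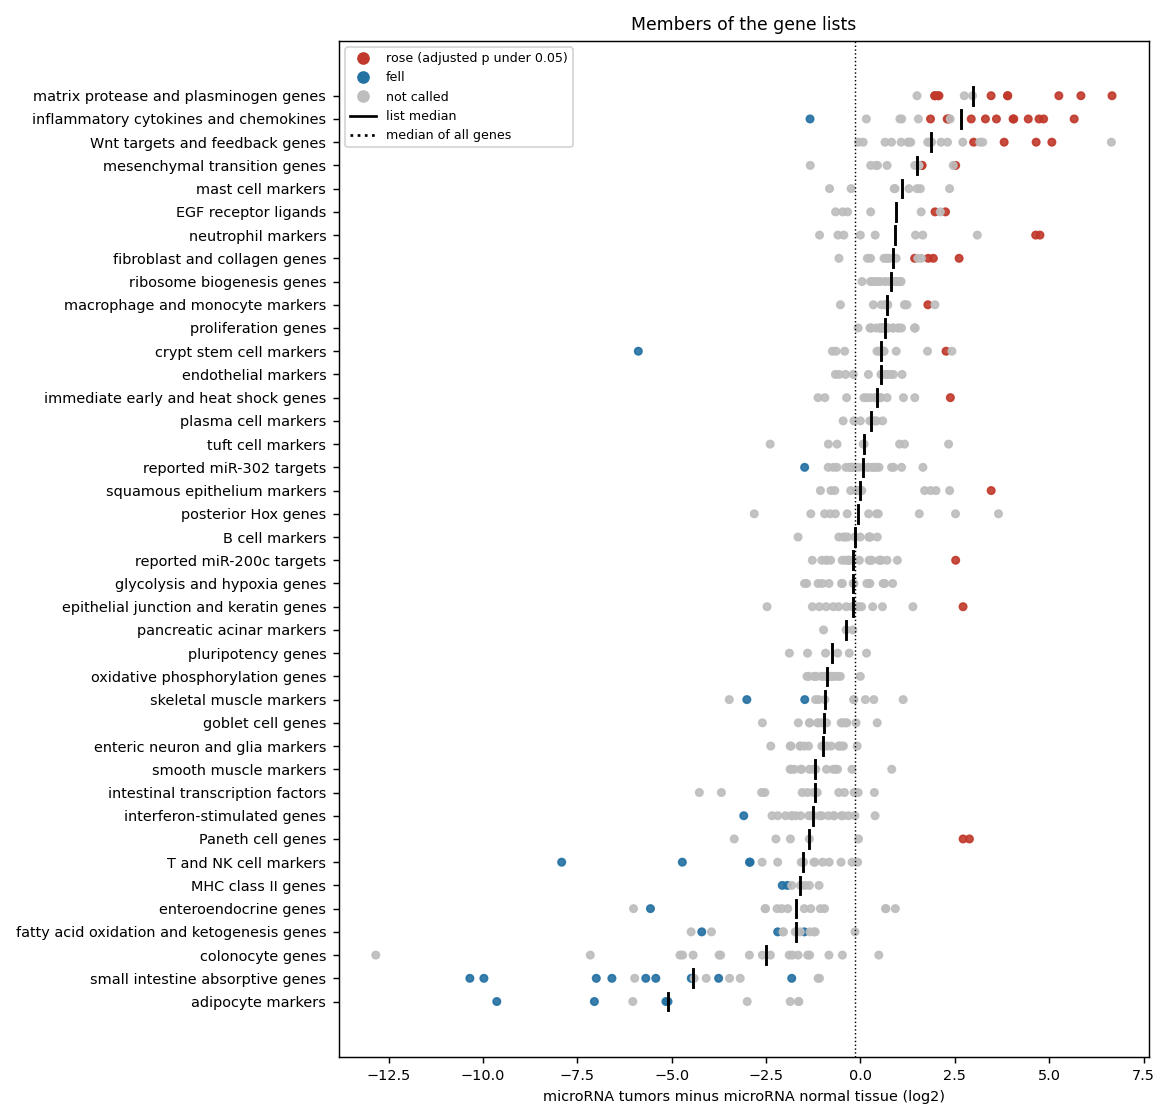
Log2 difference (microRNA tumors minus microRNA normal tissue, horizontal axis) of each tested member of the 40 gene lists, red where it rose, blue where it fell and grey where it was not called, with a black bar at the list's median and a dotted line at the median of all genes (-0.14). Matrix protease genes (median 2.97) and cytokines (2.66) lie to the right, and small intestine absorptive (-4.45) and adipocyte genes (-5.10) to the left.

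Whether the tumor effect differed between microRNA-treated and control mice was tested as the tumor effect in microRNA-treated mice minus that in control mice. Of 25332 genes, 71 were called (0.28%), 45 with a negative difference (0.178%) and 26 with a positive one (0.103%), and 1572 had an unadjusted p under 0.05. With slide as a block 56 of the 71 were still called. Of the 71, 29 were also called between microRNA tumors and microRNA normal tissue. The count was 20 without microRNA tumor 1, 34 without tumor 2, 18 without normal 1, 38 without normal 2, 31 without control normal 1, 45 without control tumor 4 and 46 without control tumor 6.

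Alpha-defensins were prominent on the negative side. In 43 of the 45, microRNA normal tissue had the highest of the 4 group means, and 16 were alpha-defensin genes or their relatives. Of the 16 small intestine absorptive genes, 4 were on this side. The difference of the tumor effects was -9.04 for Apoa1 (adjusted p = 0.00196), -6.94 for Anpep, -6.70 for Npc1l1, -4.85 for Mttp and -13.92 for Defa38 (adjusted p = 0.0303). Apoa1, Apoa4 and Npc1l1 were well above background on the microRNA normal arrays alone. Their control tumor effects therefore compare levels near background, so the size of their difference is uncertain. Genes with keratin or cornified envelope symbols made up much of the positive side. Of the 14 squamous epithelium markers tested, 2 were on this side. In 25 of the 26, control normal tissue had the highest group mean. By symbol, 15 were genes of keratins, keratin-associated proteins or the cornified envelope, with 3 myosin heavy chains. The difference was 5.32 for Krt5 (adjusted p = 0.000419), 4.91 for Lce1a1 of the cornified envelope (adjusted p = 0.00473), 6.92 for Krtap19-2 (adjusted p = 0.00943) and 5.72 for Myh8, a myosin of immature muscle (adjusted p = 0.00711). Of the 25 named genes called here, 8 were called without each of the 13 arrays in turn: Apoa1, Apoa4, Anpep, Mttp, Krt5, Lce1a1, Myh1 and Myh8. Among them Apoa4, Lce1a1 and Myh1 were not called by limma with normexp background correction (adjusted p = 0.982, 0.279 and 0.752). The filter on dim probes was set once on all 13 arrays and not repeated when an array was left out. Apoa1 and Apoa4 passed it through the 2 microRNA normal arrays alone, so without either array they would not pass it. Over the 71 genes, the median absolute difference was 0.28 between microRNA tumors and control tumors and 4.90 between microRNA normal tissue and control normal tissue. Over all genes these were 0.21 and 0.31. The 71 genes were called from these same group means. The split and the counts of highest means therefore describe the calls and are not a separate test.

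**Figure D5:**
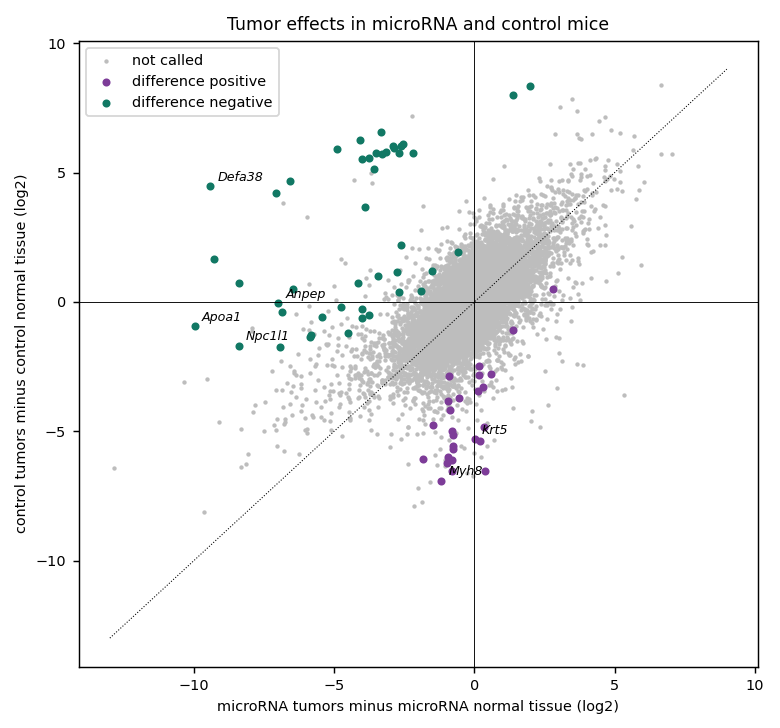
Each point is a gene, with its tumor effect (log2, tumors minus normal tissue) in microRNA-treated mice on the horizontal axis and in control mice on the vertical axis. The 45 genes with a negative difference of the effects are green and the 26 with a positive one purple; Apoa1, Anpep and Npc1l1 lie on the green side and Krt5 and Myh8 on the purple side.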

How the data were processed

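Expression was measured on 13 mouse arrays, grouped by title into microRNA tumors (2), microRNA normal tissue (2), control tumors (7) and control normal tissue (2). Per the labels, 35 ng of total RNA was labelled with Cy3 for 1-colour arrays. Per the file headers, the authors' image reading used Feature Extraction 10.7.3.1. The deposited processed signal is fluorescence intensity on a linear scale, corrected for background within the array, with no scaling across arrays. The same deposited intensities stood in the series table (largest relative difference 0).

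From these deposited intensities, log2 values were computed here and each array's log2 75th percentile was subtracted. The 3671 control spots and outlier flags were left out, spots of a probe were averaged, and 35181 of 55681 probes well above background on at least 2 of 13 arrays were kept. The probe with the highest mean stood for each of 25332 genes, of which 16794 have an official symbol. limma 3.58.1 (R 4.3.3, lmFit and eBayes) fitted 4 group means on all 13 arrays, with Benjamini-Hochberg adjustment over all genes. The script was tested on simulated data. Named genes were the 15 largest rises and falls among called genes with an official symbol whose tumor and normal arrays did not overlap. Added to these were up to 4 members of each of 40 lists (527 of 562 genes tested), a fixed set, and 10 genes per direction for the difference of effects. Members named beyond these, such as Car1, Epcam or Apob, were chosen after their values were seen. A few list members are counted but not reported by name here. The comparison, the lists and the named genes were chosen with earlier results of these data known. Alternatives covered background correction, scaling, filters, probes, slide and replicate blocks, and leaving out each array. The filter on dim probes was not repeated when an array was left out.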

Additional observations from a re-analysis of the deposited data

Results flagged for a closer look

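Among the 7 control tumors, 1 array stood apart from the others for 3 of the 20 genes named by size for the difference between tumor effects, by Dixon's ratio of its gap to the group's range, which chance alone passes in about 1 in 20 groups. The ratio was 0.764 for Apoa1 (control tumor 1, at -4.64), 0.68 for the keratin Krt71 (control tumor 5, at -4.81) and 0.583 for Slc6a19 (control tumor 4, at -3.14). The lowest level well above background was -4.18 on control tumor 1 and -4.65 on control tumor 5. The Apoa1 and Krt71 values therefore lie among levels not well above background. Over all 206 named genes 19 passed, among them Olfm4 (0.78), Adipoq (0.762), Cfd (0.699) and Plin1 (0.628), each with control tumor 1 apart.

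For 25 named genes the tumor effect in microRNA-treated mice differed from that in control mice in the test of the difference itself (limma, adjusted over all genes). Among alpha-defensins the log2 difference was -13.92 for Defa38, -11.29 for Defa29, -11.25 for Defa42, -10.96 for Defa39, -10.31 for Defa5, -9.911 for Defa26 and -9.247 for Defa37. Among genes of absorption it was -9.125 for Slc6a19, -9.038 for Apoa1, -6.94 for Anpep, -6.699 for Npc1l1, -4.852 for Mttp and -3.267 for Apoa4, and it was -10.79 for Bpifb5. For Apoa1, Apoa4 and Npc1l1 the control tumor effect compares levels not well above background. Among keratin, keratin-associated and cornified envelope genes it was 6.915 for Krtap19-2, 5.733 for Krtap22-2, 5.577 for Krt33a, 5.342 for Krt1, 5.32 for Krt5, 5.226 for Crct1, 5.048 for Krt71 and 4.914 for Lce1a1. Among myosin heavy chains it was 5.715 for Myh8, 5.196 for Myh2 and 3.285 for Myh1.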

How the results depend on the processing

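No named gene that was called between microRNA tumors and microRNA normal tissue changed sign under any alternative, while uncalled genes near 0, such as Apc and Cdh1, did. The 790 genes called between microRNA tumors and microRNA normal tissue became 2467 with normexp background correction (2011 lower), 3091 with no scaling (2928 higher, 163 lower), 1531 with no filter on dim probes (1110 lower) and 1632 with slide as a block (702 higher, 930 lower). Quantile normalization gave 530 higher and median scaling 202 lower. Slide 1 alone gave 37 (18 higher, 19 lower) and slide 2 alone 110 (53 higher, 57 lower). With the replicate number as a block, which the labels do not tie to shared animals and which coincides with the slide in both microRNA groups, 284 fell over all 13 arrays, and on the 4 microRNA arrays alone 2511 were called (939 higher, 1572 lower). The number in the file names as a random block gave 2301 (924 higher, 1377 lower). Of the listed genes 73 were called, against 139 with no scaling, 4 on slide 1, 18 on slide 2, 176 with the replicate block on 4 arrays and 133 with the random block. The 71 genes of the difference between tumor effects became 40 with normexp, 34 on slide 2 alone and 0 by limma with the replicate block (3646 at an unadjusted p under 0.05). Leaving out 1 array at a time gave 78 to 1156 calls (33 to 490 higher, 45 to 675 lower), 18 to 86 listed genes and 18 to 91 genes for the difference. The causes of these changes were not tested. With 2 arrays a group, the spread rests largely on the 7 control tumors, and genes near background have bounds only.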
